A study of Rattus norvegicus with 65 samples.

Results

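Livers of rats given repeated doses of 2-AAF were compared with livers of rats given repeated doses of 3MeDAB, both labelled as genotoxic carcinogens. This is 1 pair of compounds. The samples were chosen by their titles alone: the 3 rats titled GTX_2-AAF_long and the 3 rats titled GTX_3MeDAB_long, 6 of the 65 rats in the series. The titles' abbreviations are read as 2-acetylaminofluorene and 4-dimethylamino-3'-methyl azobenzene, the only listed compounds that carry those letters. All animals were male Sprague-Dawley rats at 6 weeks of age, with 1 liver array per rat and separate rats in every group. Each of these long groups is labelled 72 hours and received its compound 3 times; the protocol also gives a 24 h wait before autopsy, and how that joins the 72 hours is not stated. Beside them stand the 3 GTX_2-AAF_short rats and the 3 GTX_3MeDAB_short rats, labelled 3 hours, and the 3 GTX_control rats, labelled untreated with no time given. The doses of 2-AAF and 3MeDAB are not given in the sources used here, so the differences below are between these groups as dosed, and a difference of compound cannot be told apart from a difference of dose.

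Both compounds are aromatic amines that the liver converts to species that bind DNA. 2-AAF is a fluorene amine whose nitrogen carries an acetyl group, and 3MeDAB is an aminoazo dye whose nitrogen carries methyl groups. Enzymes of the cytochrome P450 1A family hydroxylate such amines at the nitrogen, transferases attach sulfate or acetyl groups to the product, and the resulting esters react with DNA. Damaged DNA activates the transcription factor p53, which raises genes of cell cycle arrest and cell death. The liver also holds resident macrophages, the Kupffer cells, which clear debris and respond to injured hepatocytes.

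Values are log2 RMA signals, in which 1 unit is a 2-fold difference, and every difference is 2-AAF minus 3MeDAB, given with its standard error (SE). One value was taken per gene, from the probe set with a single gene symbol and the highest mean signal. A gene passed the test where limma, fitted to 41 arrays in 14 groups, gave a Benjamini-Hochberg adjusted p under 0.05 over all 11007 genes tested. Pairwise correlations between rats over these genes were 0.970 to 0.981 in the 2-AAF long group and 0.987 to 0.995 in the 3MeDAB long group. The hepatocyte product albumin (Alb) had signals of 14.65, 14.70 and 14.68 in the 2-AAF long rats and 14.68, 14.79 and 14.77 in the 3MeDAB long rats, the level of a very abundant transcript. Rat 1 of the 2-AAF long group stood apart in RNA end balance: its Gapdh 3' minus 5' signal was 0.95, against 0.28 and 0.19 in the other 2-AAF long rats and 0.24 to 0.39 in the 3MeDAB long rats. Its beta-actin 3' minus 5' signal was 3.86, against 2.70 and 2.76 in the other 2-AAF long rats and 2.82 to 3.20 in the 3MeDAB long rats. The part of RNA end balance in the results was not tested. Without that rat 4863 genes passed. Where leaving out this or another of the 6 rats ended the call of a gene named below, or moved a list count of 3 or more by over 1.5 times, this is given beside it; counts under 3 moved in further lists.

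The livers of the 2 long groups differed widely. Of the 11007 genes, 5405 (49.1%) passed the test, with 1639 (14.9%) higher and 3766 (34.2%) lower in the 2-AAF long rats. Among those that passed, 232 were higher and 405 were lower by more than 1 log2 unit. The rats of the 2 groups did not overlap in 5499 of all tested genes (50%), and in 84.4% of those that passed. The median difference of all tested genes was -0.15. This balance of directions depended on scaling. With all arrays quantile normalized, 2062 genes were higher and 2517 lower with a median of -0.03. With each array centred on its own median over the 11007 tested genes, 3683 were higher and 1552 lower with a median of 0.12. A count of list members below is therefore set against 14.9% higher and 34.2% lower, and the median took the other sign after centring in the lists of acute phase, interferon, integrated stress response, ER chaperone, heat shock, methionine and polyamine, clock, cholangiocyte and adipose genes. The plot of signals by rat shows 12 of the named genes.

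**Figure D1:**
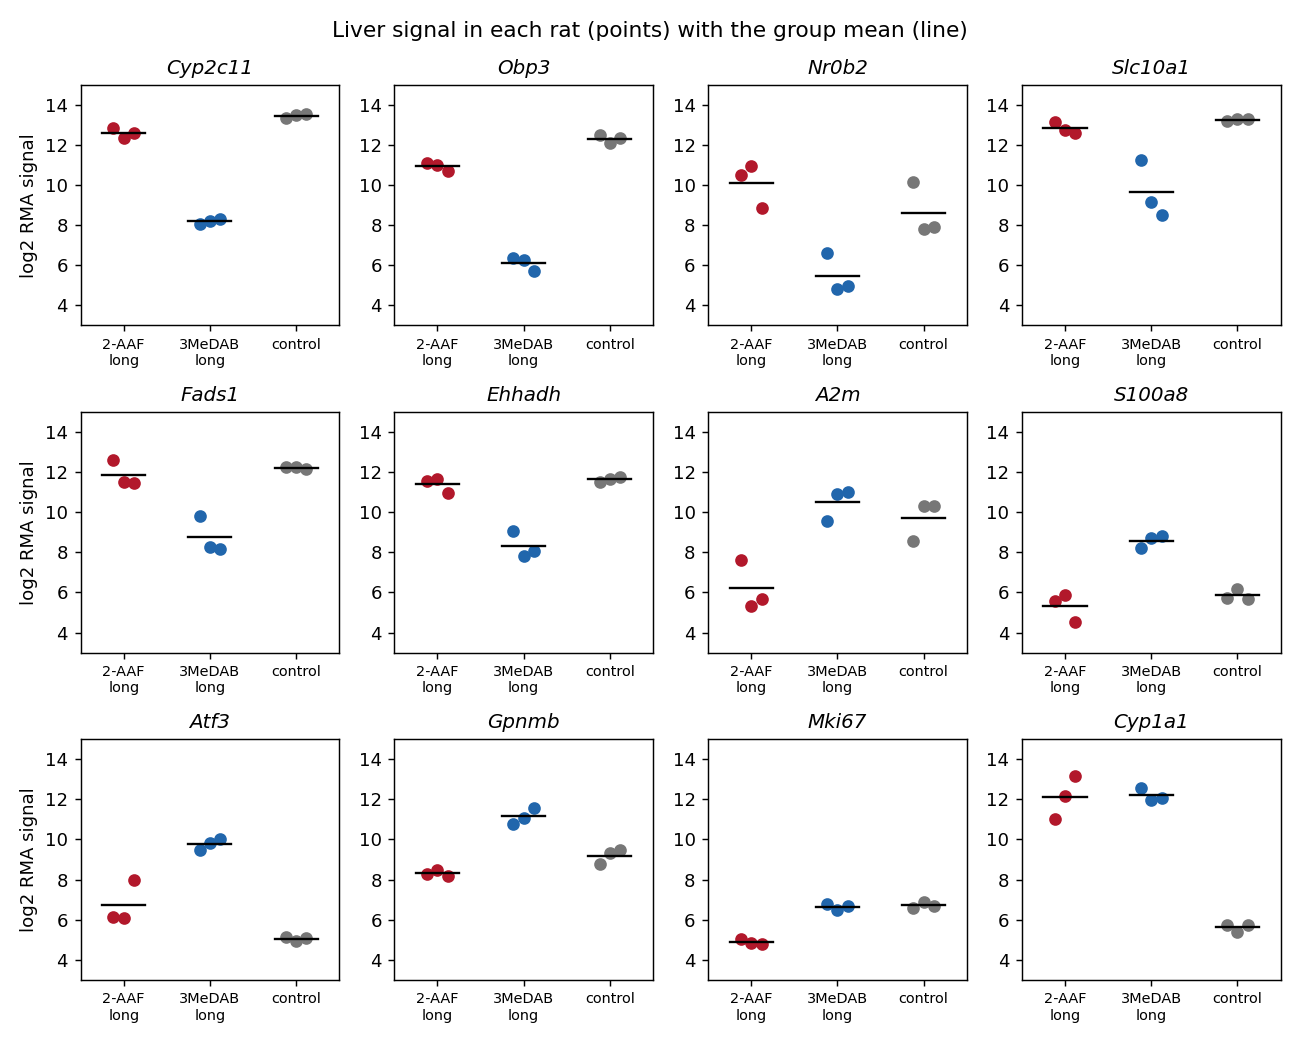
Log2 RMA signal (y axis) of 12 genes in each of the 3 rats of the 2-AAF long, 3MeDAB long and control groups (points), with the group mean (line). Cyp2c11 lies at 12.36 to 12.84 in the 2-AAF long rats and at 8.06 to 8.33 in the 3MeDAB long rats, while Cyp1a1 overlaps between those groups and lies at 5.38 to 5.75 in the control rats.

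Genes that the male pattern of growth hormone switches on in rat liver were higher in the 2-AAF long rats. Of 11 male-biased genes tested, 10 were higher and 1 was lower, with a median difference of 1.89. Cyp2c11, the main male-specific cytochrome P450 of rat liver, had signals of 12.84, 12.36 and 12.60 in the 2-AAF long rats, 8.06, 8.20 and 8.33 in the 3MeDAB long rats and 13.34, 13.49 and 13.55 in the control rats. The 2-AAF long rats lay somewhat below the controls and the 3MeDAB long rats far below both, a difference of 4.41 ± 0.13 (adjusted p = 1.36e-21), or 21.2-fold. Obp3, a lipocalin of the alpha-2u-globulin family, gave the largest positive difference of all named genes, 4.83 ± 0.55 (adjusted p = 5.15e-08). Its signals were 11.13, 11.02 and 10.68 in the 2-AAF long rats, 6.36, 6.26 and 5.73 in the 3MeDAB long rats and 12.51, 12.11 and 12.36 in the control rats. The short-chain dehydrogenase Dhrs7l1 varied among the 2-AAF long rats, at 11.07, 9.50 and 7.08, but each exceeded the 3MeDAB long rats at 5.13, 5.03 and 5.23, with control rats at 11.47, 12.74 and 12.77. Its difference was 4.09 ± 0.71 (adjusted p = 2.6e-05). The aldo-keto reductase Akr1c1 was spread in the same way, at 8.94, 6.60 and 8.55 in the 2-AAF long rats and 4.74, 4.60 and 4.62 in the 3MeDAB long rats, a difference of 3.38 ± 0.76 (adjusted p = 0.000599). Mup5, another urinary lipocalin, was higher by 2.77 ± 0.22, and Cyp2a2 and Hsd3b5 were higher by 1.89 ± 0.14 and 1.32 ± 0.26. Cyp2c22 was the male-biased gene that was lower, at a small -0.41 ± 0.08, and it did not pass after centring (-0.14).

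The signalling genes of the pathway did not move as a block. Igfals, which carries IGF1 in blood, was higher by 0.90 ± 0.28, Stat5b, the factor that transmits the growth hormone pulse, was lower at -0.47 ± 0.15, and the growth hormone receptor gene Ghr and Igf1 did not pass. Igfals no longer passed without rat 1 of the 2-AAF long group (0.68) or rat 3 of the 3MeDAB long group (0.71), and Stat5b did not without the same rats (-0.38 and -0.40), after quantile normalization (-0.32) or after centring (-0.20). After centring Ghr and Igf1 passed as higher (0.50 and 0.31), as did Ghr without rat 3 of the 2-AAF long group (0.48). Socs2, a feedback inhibitor of the receptor, averaged 5.10 ± 0.16 in the 2-AAF long rats, 5.44 ± 0.18 in the 3MeDAB long rats and 8.37 ± 0.62 in the control rats (SD, n = 3 each), so both treated groups lay below the controls. None of the 3 female-biased genes tested passed. The probe set annotated to Cyp2c12, the female-specific P450, was bright in these males, at 12.83 ± 0.29 in the control rats (SD, n = 3), and differed between the compounds by 0.06 ± 0.17. Genes of the 2C, alpha-2u-globulin, Akr1c and Sult1c families have near-identical relatives, and a probe set may read more than 1 of them.

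Bile acid genes gave the highest share of members higher in the 2-AAF long rats among the lists with 7 or more tested members. Of 20 tested, 16 were higher and none was lower, with a median difference of 0.71; the count was 16 after quantile normalization and 18 after centring. Nr0b2 encodes the receptor SHP, which bile acids induce through FXR and which represses bile acid synthesis. It had signals of 10.51, 10.94 and 8.84 in the 2-AAF long rats, 6.61, 4.81 and 4.99 in the 3MeDAB long rats and 10.15, 7.80 and 7.92 in the control rats. The 2 treated groups did not overlap, the controls spanned more than 2 units, and the difference was 4.63 ± 0.70 (adjusted p = 4.12e-06). Slc10a1, the sodium-dependent bile acid uptake carrier NTCP, had 13.15, 12.76 and 12.61 in the 2-AAF long rats, 11.23, 9.17 and 8.52 in the 3MeDAB long rats and 13.20, 13.30 and 13.29 in the control rats. All 3 rats given 3MeDAB lay below every other rat shown, with a difference of 3.20 ± 0.33 (adjusted p = 7.82e-09). Both other uptake carriers were higher too, Slco1b2 by 0.82 ± 0.16 and Slco1a1 by 0.66 ± 0.13.

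Among the enzymes of bile acid synthesis 8 of 10 were higher. Amacr, the racemase of the side chain, was higher by 1.39 ± 0.20, Slc27a5, the bile acid-CoA ligase, by 1.09 ± 0.15, and Cyp8b1 and Cyp27a1 by 0.90 ± 0.31 and 0.89 ± 0.14. Cyp8b1 no longer passed without rat 3 of the 2-AAF long group (0.64) or without rat 2 or 3 of the 3MeDAB long group (0.62 and 0.79). Cyp7a1, the rate-limiting enzyme, did not pass: it had 12.18, 10.44 and 11.77 in the 2-AAF long rats, 10.58, 9.11 and 8.60 in the 3MeDAB long rats and 12.62, 7.96 and 8.32 in the control rats, and its wide spread left a difference of 2.03 ± 0.94 (adjusted p = 0.0723). It passed after centring (2.31), with the 6 arrays alone (adjusted p = 0.0338) and without rat 1 of the 3MeDAB long group (2.61). The export pump Abcb11 was higher by 0.98 ± 0.12 and the phospholipid exporter Abcb4 by 0.74 ± 0.21. The receptor FXR gene itself, Nr1h4, was higher by 0.61 ± 0.17.

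Of 20 lipogenesis genes tested, 10 were higher in the 2-AAF long rats and 1 was lower, with a median of 0.49. Fads1, the delta-5 desaturase of polyunsaturated fatty acids, had 12.62, 11.52 and 11.45 in the 2-AAF long rats, 9.84, 8.29 and 8.16 in the 3MeDAB long rats and 12.28, 12.24 and 12.18 in the control rats, a difference of 3.10 ± 0.28 (adjusted p = 3.83e-10). Fads2, the delta-6 desaturase, had 11.06, 9.64 and 9.35 in the 2-AAF long rats, 8.54, 6.48 and 6.25 in the 3MeDAB long rats and 10.92, 11.19 and 11.36 in the control rats, a difference of 2.93 ± 0.36 (adjusted p = 1.97e-07). For both genes rat 1 of each treated group was the highest of its group, and the groups did not overlap. Elovl2, which elongates the products of these enzymes, was higher by 0.88 ± 0.21, and Me1, which supplies NADPH, by 1.20 ± 0.22. Scd, the desaturase of saturated fatty acids, was low in both, at 6.81 ± 1.65 in the 2-AAF long rats and 6.57 ± 0.63 in the 3MeDAB long rats against 12.28 ± 0.48 in the control rats, and the treated groups differed by 0.24 ± 0.53, which did not pass and was -0.71 without rat 1 of the 2-AAF long group. Gpam, the first enzyme of triglyceride synthesis, was the lower member, at -0.66 ± 0.24. It no longer passed after quantile normalization (-0.47), after centring (-0.39) or without rat 2 of either long group (-0.57 without the 2-AAF rat and -0.57 without the 3MeDAB rat).

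Of 19 cholesterol synthesis genes tested, 11 were higher and none was lower (median 0.65). Dhcr7, the last reductase of the pathway, had 11.27, 10.90 and 11.14 in the 2-AAF long rats, 10.13, 9.68 and 9.50 in the 3MeDAB long rats and 10.71, 10.80 and 10.80 in the control rats, a difference of 1.33 ± 0.19 (adjusted p = 2.37e-06). Msmo1, Nsdhl and Sc5d, later steps of the same pathway, were higher by 0.88 ± 0.29, 0.71 ± 0.14 and 0.65 ± 0.16. Msmo1 no longer passed without rat 1 of the 2-AAF long group (0.64) or rat 2 or 3 of the 3MeDAB long group (0.80 and 0.76), and Sc5d was 0.33 without rat 1 of the 2-AAF long group. The early enzyme Mvk differed by 0.07 ± 0.14 and did not pass, and Sqle, the squalene epoxidase, differed by -0.37 ± 0.26 and did not pass. The count of 11 fell to 6 without rat 1 of the 2-AAF long group, to 7 without rat 2 and to 6 without rat 3 of the 3MeDAB long group.

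Fatty acid oxidation genes followed in smaller number, with 9 of 28 higher and 1 lower, and 18 higher and 1 lower after centring. Ehhadh, the peroxisomal bifunctional enzyme, stood far from the rest: it had 11.55, 11.68 and 10.98 in the 2-AAF long rats, 9.05, 7.83 and 8.09 in the 3MeDAB long rats and 11.52, 11.66 and 11.75 in the control rats. The 2-AAF long rats overlapped the controls, and the difference from the 3MeDAB long rats was 3.08 ± 0.28 (adjusted p = 4.3e-10). Decr2 and Abcd3, an enzyme and a transporter of peroxisomes, were higher by 1.05 ± 0.14 and 0.59 ± 0.12. Cyp4a1, a classic target of PPAR alpha, differed by 0.36 ± 0.20 and did not pass, though it did after centring (0.63). The lower member was Angptl4, an inhibitor of lipoprotein lipase, at 10.04, 9.15 and 9.67 in the 2-AAF long rats, 10.84, 10.79 and 11.04 in the 3MeDAB long rats and 11.23, 11.63 and 11.71 in the control rats, a difference of -1.27 ± 0.19 (adjusted p = 2.67e-06).

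**Figure D2:**
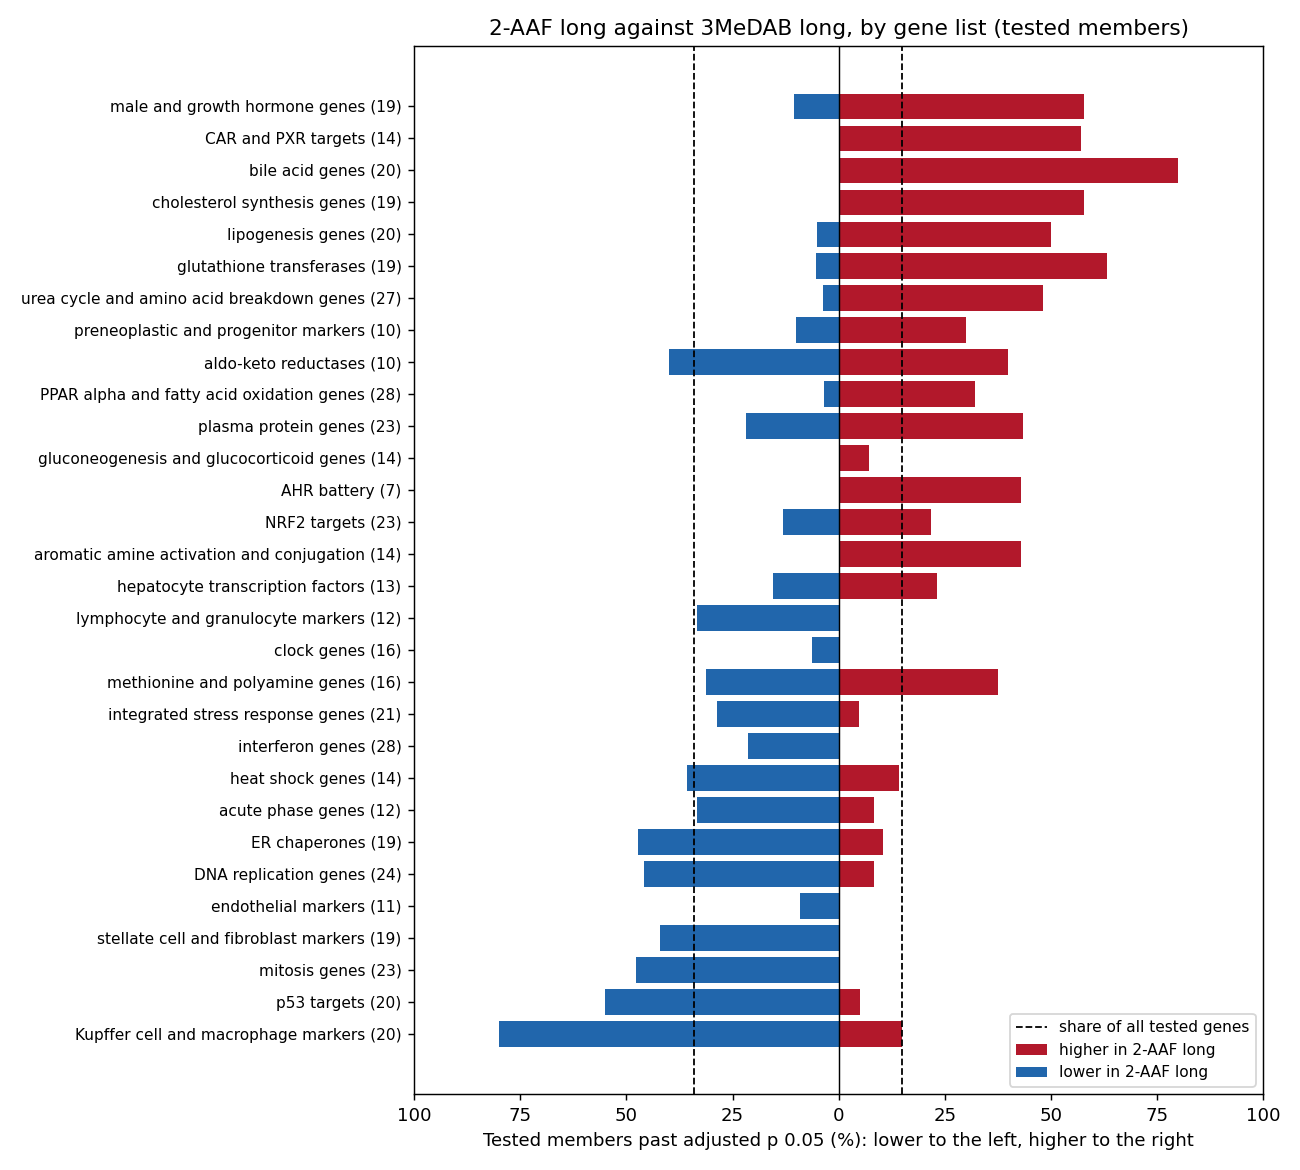
Share of the tested members of each gene list (rows, tested members in brackets; lists with 7 or more) that passed at an adjusted p under 0.05, in percent, higher in the 2-AAF long rats to the right and lower to the left, ordered by the median difference. Dashed lines mark the shares over all tested genes, 14.9% higher and 34.2% lower. Bile acid genes reach furthest right with 16 of 20 members, and Kupffer cell and macrophage markers furthest left with 16 of 20.

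The enzymes that handle aromatic amines differed in part. Of 14 tested, 6 were higher in the 2-AAF long rats and none was lower. Sulfotransferases of the 1C family, some of which activate N-hydroxylated amines in rat, were higher in all 3 cases measured. Sult1c3 had 12.63, 11.74 and 12.07 in the 2-AAF long rats, 9.93, 7.45 and 8.54 in the 3MeDAB long rats and 13.27, 13.36 and 13.16 in the control rats, a difference of 3.51 ± 0.30 (adjusted p = 1.71e-10). Sult1c2 had 8.18, 5.29 and 6.65 in the 2-AAF long rats against 4.38, 4.74 and 4.38 in the 3MeDAB long rats and 8.74, 8.43 and 8.22 in the control rats; its difference of 2.21 ± 0.39 was 1.47 without rat 1 of the 2-AAF long group. Sult1c2a was higher by 1.36 ± 0.28. Sult1a1 and Sult1b1, the other sulfotransferases, differed by -0.14 ± 0.09 and 0.07 ± 0.07 and did not pass; after centring Sult1b1 passed (0.34). The flavin monooxygenase Fmo1 had 10.96, 9.95 and 9.05 in the 2-AAF long rats, 7.80, 7.41 and 7.06 in the 3MeDAB long rats and 12.04, 11.60 and 11.66 in the control rats. The 2-AAF long rats lay between the 3MeDAB long rats and the controls with no overlap, and the difference was 2.56 ± 0.27 (adjusted p = 8.07e-09). Aadac, the arylacetamide deacetylase that can remove the acetyl group of 2-AAF, had 11.66, 11.62 and 11.01 in the 2-AAF long rats, 10.54, 9.76 and 9.47 in the 3MeDAB long rats and 11.70, 11.80 and 11.75 in the control rats, a difference of 1.51 ± 0.18 (adjusted p = 9.86e-08). The N-acetyltransferase genes Nat1 and Nat2 differed by -0.40 ± 0.23 and -0.27 ± 0.16, and neither passed (adjusted p = 0.155 and 0.153).

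Cyp1a1, the main target of the aryl hydrocarbon receptor, was high in both groups. It had 11.04, 12.15 and 13.16 in the 2-AAF long rats and 12.59, 11.99 and 12.05 in the 3MeDAB long rats, with overlap, against 5.75, 5.38 and 5.72 in the control rats. The difference between the compounds was -0.09 ± 0.60, with a 95% interval of -1.31 to 1.13 (adjusted p = 0.908), so these data leave room for a difference of more than 2-fold in either direction. Its sign turned after centring (0.18), without rat 1 of the 2-AAF long group (0.45) and without rat 1 of the 3MeDAB long group (0.10). Cyp1a2, which hydroxylates aromatic amines at the nitrogen, was higher in the 2-AAF long rats: 13.35, 13.34 and 13.64, against 12.87, 12.80 and 12.78 in the 3MeDAB long rats and 12.74, 12.56 and 12.65 in the control rats, a difference of 0.62 ± 0.14 (adjusted p = 0.000415). Nqo1, a quinone reductase, had 12.35, 12.83 and 12.89 in the 2-AAF long rats, 12.85, 12.41 and 12.37 in the 3MeDAB long rats and 11.36, 11.19 and 11.04 in the control rats, and its interval of -0.34 to 0.64 spanned 0. Of 7 genes of the receptor's battery tested, 3 were higher and none was lower, but the receptor gene Ahr and Aldh3a1 passed narrowly (0.25 ± 0.09 and 0.62 ± 0.24). Of the 3, Cyp1a2 alone passed without rat 1 of the 3MeDAB long group and after quantile normalization. Aldh3a1 was 0.22 without rat 3 of the 2-AAF long group (adjusted p = 0.401), and did not pass without rat 2 or rat 3 of the 3MeDAB long group either (0.64 and 0.59).

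The mean log2 signal over the measured p53 targets was 9.37 to 9.59 in the 2-AAF long rats, 9.82 in each of the 3MeDAB long rats and 8.09 to 8.25 in the control rats. Of these genes 11 of 20 tested were lower in the 2-AAF long rats with 1 higher, a median difference of -0.53. Cdkn1a, the cell cycle inhibitor p21, had 11.75, 11.40 and 11.33 in the 2-AAF long rats, 11.90, 12.15 and 12.26 in the 3MeDAB long rats and 6.38, 8.04 and 8.46 in the control rats. The treated groups did not overlap, as held for 50% of all tested genes. Their difference of -0.61 ± 0.43 did not pass in the fit that takes its spread from all 14 groups (adjusted p = 0.239). It passed with the 6 arrays alone (adjusted p = 0.0277) and with the mean of both probe sets, at -0.96 (adjusted p = 0.013). Mdm2, which feeds back on p53, had 10.70, 11.17 and 11.85 in the 2-AAF long rats, 11.71, 11.80 and 11.73 in the 3MeDAB long rats and 8.44, 8.54 and 8.62 in the control rats. Rat 3 of the 2-AAF long group exceeded all 3 rats given 3MeDAB, and the difference of -0.51 ± 0.20 passed narrowly (adjusted p = 0.0317) and was lost in 8 of the alternatives, among them centring (-0.24) and leaving out any rat but rat 3 of the 2-AAF long group.

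Among the death-related targets 7 of 8 were lower. Phlda3, an inhibitor of AKT signalling, had 10.91, 10.86 and 11.15 in the 2-AAF long rats, 11.80, 11.63 and 11.72 in the 3MeDAB long rats and 8.39, 8.86 and 8.66 in the control rats, a difference of -0.74 ± 0.16 (adjusted p = 0.000347). Aen, an apoptosis-related nuclease, and Bbc3, the BH3 protein PUMA, were lower at -0.73 ± 0.18 and -0.65 ± 0.17. The secreted Gdf15 showed the largest difference of the list, -1.24 ± 0.41 (adjusted p = 0.0137), with rat 3 of the 2-AAF long group at 9.04, near the 3MeDAB long rats at 9.39, 9.26 and 9.13. Mgmt, which repairs alkylated guanine, was above the controls in both groups: it had 12.22, 12.39 and 12.27 in the 2-AAF long rats, 12.19, 11.86 and 12.03 in the 3MeDAB long rats and 9.47, 9.01 and 9.04 in the control rats, a difference of 0.26 ± 0.13 with an interval of -0.0023 to 0.53 (adjusted p = 0.0928). After centring it was 0.54 (adjusted p = 0.0025). After quantile normalization 8 p53 targets were lower and 1 higher, and after centring 4 were lower and 4 higher. Gdf15 no longer passed without rat 1 or rat 2 of the 2-AAF long group (-1.04 and -0.94) or with the genotoxic set alone (adjusted p = 0.0614). The higher target, Plk3 (0.38 ± 0.16), no longer passed without rat 2 or 3 of the 2-AAF long group (0.42 and 0.29), without rat 2 or 3 of the 3MeDAB long group (0.33 and 0.34) or with fewer arrays. The count of 11 fell to 7 without rat 2 of the 2-AAF long group and to 7 without rat 2 of the 3MeDAB long group.

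Of 23 tested targets of NRF2, the factor that answers oxidants and electrophiles, 5 were higher, 3 were lower and 15 did not pass. After centring 12 were higher and 2 lower. Srxn1, which reduces oxidised peroxiredoxins, had 9.89, 10.81 and 11.90 in the 2-AAF long rats, 12.63, 12.30 and 12.43 in the 3MeDAB long rats and 8.58, 8.88 and 8.79 in the control rats, a difference of -1.59 ± 0.33 (adjusted p = 0.00027); 1 of its 3 probe sets had the other sign, at 0.06. The reductase Akr1b8 had 6.42, 8.58 and 10.39 in the 2-AAF long rats, a range of almost 4 units, against 11.66, 10.73 and 11.18 in the 3MeDAB long rats and 5.99, 6.50 and 6.49 in the control rats. Rat 1 of the 2-AAF long group sat at the control level and rat 3 near the 3MeDAB long rats, and the difference was -2.73 ± 0.50 (adjusted p = 5.12e-05). Akr1b7, a close relative, was lower at -2.70 ± 0.68. Without rat 1 of the 2-AAF long group these differences were -1.71 for Akr1b8 and -1.22 for Akr1b7. In the other direction Gclm, a subunit of the enzyme that starts glutathione synthesis, and the cystine carrier Slc7a11 were higher by 0.81 ± 0.17 and 0.84 ± 0.33. Slc7a11 no longer passed without rat 1 or 2 of the 2-AAF long group (0.62 and 0.85), without rat 2 or 3 of the 3MeDAB long group (0.82 and 0.80) or after quantile normalization (adjusted p = 0.0504). The 5 higher targets fell to 3 without rat 2 of the 2-AAF long group and without rat 2 or rat 3 of the 3MeDAB long group. Of the 10 aldo-keto reductases tested, 4 were higher and 4 lower, and the family divided by subfamily: Akr1c1, Akr1c3 (2.41 ± 0.22), Akr1c14 and Akr7a2 (1.06 ± 0.14) were higher, and Akr1a1, Akr1b1, Akr1b7 and Akr1b8 were lower. After centring Akr1a1 and Akr1b1 no longer passed (-0.01 and -0.36), and neither did Akr1b1 with the mean of its probe sets (-0.14).

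Glutathione transferases, which conjugate electrophiles, were mostly higher in the 2-AAF long rats: 12 of 19 were higher and 1 was lower. Gstm7 had 9.84, 9.50 and 8.97 in the 2-AAF long rats, 7.80, 7.20 and 7.08 in the 3MeDAB long rats and 10.25, 10.60 and 10.61 in the control rats, a difference of 2.08 ± 0.25 (adjusted p = 1.38e-07). Gstt3 had 12.17, 12.87 and 12.68 in the 2-AAF long rats, which lay above both the 3MeDAB long rats at 10.99, 10.55 and 10.58 and the control rats at 11.74, 11.71 and 11.82. Gstz1, an enzyme of tyrosine breakdown as well, was higher by 1.24 ± 0.16. Gstm3 was the lower member, at -1.61 ± 0.39 (adjusted p = 0.00125), and -1.05 without rat 1 of the 2-AAF long group. Gstp1, the classic marker of preneoplastic foci in rat liver, had 9.28, 10.42 and 11.75 in the 2-AAF long rats, 11.14, 10.40 and 10.82 in the 3MeDAB long rats and 9.45, 9.68 and 9.12 in the control rats. Its 2-AAF values spanned more than 2 units and enclosed the 3MeDAB values, and the difference of -0.30 ± 0.30 did not pass (adjusted p = 0.414). Without rat 3 of the 2-AAF long group it was -0.93 (adjusted p = 0.00105), and without rat 1 it was 0.30. Of 10 markers of preneoplasia or progenitor cells tested, Gstp1 among them, 3 were higher, 1 was lower and 6 did not pass. Over all tested genes 14.9% were higher and 34.2% lower. Igf2bp3 and Ggt1 were higher by 0.86 ± 0.23 and 0.49 ± 0.13, and the third higher member was Aldh3a1 (0.62 ± 0.24), which was lost in 7 of the alternatives. The fetal protein gene Afp differed by 0.52 ± 0.24 (adjusted p = 0.0772), and Tspan8 passed narrowly as lower, at -0.46 ± 0.18. Ggt1 was 0.29 without rat 3 of the 2-AAF long group. Tspan8 did not pass after quantile normalization (-0.35), after centring (-0.19), with the genotoxic set alone, or when any rat but rat 2 of the 3MeDAB long group was left out (-0.50 without rat 1 and -0.36 without rat 3 of that group, -0.42, -0.49 and -0.47 without rats 1, 2 and 3 of the 2-AAF long group).

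Of the genes of the drug receptors CAR and PXR and their targets, 8 of 14 were higher and none was lower. These were 7 of 12 targets and 1 of the 2 receptor genes. Slco1a4, an organic anion carrier, had 12.20, 12.15 and 12.23 in the 2-AAF long rats, 10.36, 9.47 and 9.76 in the 3MeDAB long rats and 12.36, 12.43 and 12.48 in the control rats, a difference of 2.33 ± 0.18 (adjusted p = 2.49e-11). Cyp3a23-3a1, the inducible P450 of the 3A family, had 13.86, 14.10 and 14.26 in the 2-AAF long rats, above the 3MeDAB long rats at 13.10, 12.83 and 12.89 and the control rats at 12.94, 13.13 and 13.07. Slco1a4 thus lay just below the controls after 2-AAF, and Cyp3a23-3a1 overlapped the controls after 3MeDAB. Cyp3a18 and the carboxylesterase Ces2c were higher by 1.38 ± 0.19 and 0.80 ± 0.25. The CAR gene Nr1i3 was higher by 1.28 ± 0.43, and the PXR gene Nr1i2 differed by 0.18 ± 0.13 and did not pass. Nr1i3 no longer passed without rat 2 or 3 of the 3MeDAB long group (0.89 and 1.16), and Nr1i2 passed after quantile normalization (0.37) and centring (0.45).

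Cell division was read from mitosis and DNA replication genes. Of 23 mitosis genes tested, 11 were lower in the 2-AAF long rats and none was higher (median -0.51), and of 24 DNA replication genes 11 were lower and 2 were higher (median -0.31). After centring the counts were 6 lower and 1 higher for mitosis, and 6 lower and 5 higher for replication. Cyclin and spindle genes of dividing cells often carry CCAAT boxes and the TTTGAA element just before the start site, and these are shown for the cyclin Ccnb2 and the proliferation marker Mki67 because both are among the 3 lowest mitosis genes. The sequences come from RefSeq on the GRCr8 build, minus strand, read 5′ to 3′, with matches to either motif on either strand in capitals. The Ccnb2 stretch lies at chr8:79981684-79981853, 195 to 26 bases before the annotated start, and the Mki67 stretch at chr1:199952671-199952794, 201 to 78 bases before it.
Ccnb2: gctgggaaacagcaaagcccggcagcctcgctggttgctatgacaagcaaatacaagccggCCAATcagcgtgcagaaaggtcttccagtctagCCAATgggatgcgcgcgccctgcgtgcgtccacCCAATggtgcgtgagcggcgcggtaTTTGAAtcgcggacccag
Mki67: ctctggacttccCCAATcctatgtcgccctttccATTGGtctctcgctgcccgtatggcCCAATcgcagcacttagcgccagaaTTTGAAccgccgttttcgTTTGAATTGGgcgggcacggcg
The Ccnb2 stretch was cut to 170 bases and holds 4 matches, and matches further upstream are neither shown nor counted. The Mki67 stretch was not cut and holds 6, the last 2 of which share a base. Of the 20 tested mitosis genes with a promoter in that table, 17 held CCAAT and 11 held TTTGAA in the 250 bases before the start (85% and 55%), against 34.3% and 16% of 27457 promoters. A match describes the letters and not a bound site.

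Mki67 had signals of 5.02, 4.82 and 4.77 in the 2-AAF long rats, 6.78, 6.50 and 6.67 in the 3MeDAB long rats and 6.59, 6.86 and 6.69 in the control rats. The 3MeDAB long rats overlapped the controls and the 2-AAF long rats lay below both, a difference of -1.78 ± 0.34 (adjusted p = 0.000109). Ccnb2 had 5.46, 4.84 and 4.68 in the 2-AAF long rats, 6.81, 6.57 and 6.66 in the 3MeDAB long rats and 7.48, 7.37 and 7.48 in the control rats, a difference of -1.69 ± 0.32 (adjusted p = 7.55e-05). The cyclin Ccna2 and the checkpoint kinase Bub1 were lower at -1.67 ± 0.33 and -1.08 ± 0.32. All of these 2-AAF signals lie below the table's median of 6.03, toward the dim end of the array. Cdk1, which drives mitosis, differed by -0.63 ± 0.33 and did not pass, although it did with the 6 arrays alone (adjusted p = 0.0405).

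Among replication genes, Ccnd1, the cyclin that opens the G1 phase, had 8.77, 7.62 and 9.39 in the 2-AAF long rats, 10.36, 10.22 and 10.38 in the 3MeDAB long rats and 9.35, 9.39 and 9.54 in the control rats. The controls lay between and overlapped rat 3 of the 2-AAF long group, and the difference was -1.73 ± 0.27 (adjusted p = 8.12e-06). Mcm6 and Mcm4, subunits of the replicative helicase, were lower at -1.13 ± 0.20 and -0.92 ± 0.18, with the 3MeDAB long rats near the controls. Tyms, which makes thymidylate, was above the controls in both treated groups: it had 6.85, 7.48 and 7.47 in the 2-AAF long rats, 8.37, 8.36 and 8.37 in the 3MeDAB long rats and 5.48, 5.55 and 5.89 in the control rats, a difference of -1.10 ± 0.18 (adjusted p = 9.38e-06). Tk1 and Dut, which also supply thymidine nucleotides, were the 2 higher members, by 0.56 ± 0.14 and 0.35 ± 0.13; the other probe set of Dut gave -0.10. Dut did not pass with the mean of both (0.13), with the genotoxic set alone (adjusted p = 0.07), without rat 2 or 3 of the 2-AAF long group (0.29 and 0.30) or without rat 3 of the 3MeDAB long group (0.28).

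Markers of Kupffer cells and other macrophages were lower in the 2-AAF long rats in 16 of 20 cases, higher in 3, with a median of -1.10. The counts were 16 lower and 3 higher after quantile normalization and 15 and 4 after centring. In bulk liver, fewer cells of a type and less RNA per cell cannot be told apart. The mean log2 signal over all 20 measured markers was 9.11 to 9.43 in the 2-AAF long rats, 10.05 to 10.37 in the 3MeDAB long rats and 9.74 to 9.92 in the control rats. The controls thus lay between the treated groups without overlap. Cd163, the haemoglobin scavenger receptor of resident macrophages, had 8.06, 7.82 and 7.71 in the 2-AAF long rats, 9.17, 9.14 and 9.46 in the 3MeDAB long rats and 8.09, 8.07 and 8.33 in the control rats, a difference of -1.40 ± 0.14 (adjusted p = 6.66e-09). Clec4f, a lectin of rodent Kupffer cells, was lower at -0.67 ± 0.17, and all 4 resident markers measured were lower. Gpnmb, a glycoprotein of lipid-laden and injury-associated macrophages, had 8.26, 8.46 and 8.20 in the 2-AAF long rats, 10.80, 11.06 and 11.58 in the 3MeDAB long rats and 8.76, 9.31 and 9.46 in the control rats, a difference of -2.84 ± 0.33 (adjusted p = 6.39e-08). The adaptor Tyrobp and the lysozyme gene Lyz2 were lower at -1.31 ± 0.16 and -1.37 ± 0.34. Cd14, the lipopolysaccharide co-receptor, went the other way, by 0.97 ± 0.24, as did Spp1 and Trem2 by 0.49 ± 0.15 and 0.29 ± 0.10. Trem2 no longer passed without rat 1 or 2 of the 3MeDAB long group (0.23 and 0.25), and Clec4f did not after centring (-0.40).

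Both granulocyte genes tested were lower. S100a8, a calcium-binding protein of neutrophils, had 5.56, 5.87 and 4.52 in the 2-AAF long rats, 8.20, 8.73 and 8.83 in the 3MeDAB long rats and 5.71, 6.17 and 5.69 in the control rats. The 3MeDAB long rats stood above both other groups, and the difference was -3.27 ± 0.40 (adjusted p = 1.61e-07). Its partner S100a9 was lower at -1.48 ± 0.32, and Ptprc, the pan-leukocyte antigen CD45, at -1.43 ± 0.19. Of 10 lymphocyte markers tested 2 were lower, under the background share of 34.2%, and none was higher. With the granulocyte genes 4 of 12 were lower, near that share. The T cell genes Cd3e and Cd3g and the B cell gene Cd79b did not pass, and Cd3d, Cd8b and Gzmb stayed under the filter. After centring 5 of the lymphocyte and granulocyte markers were higher and 3 lower, with Cd3e and Cd3g among the higher (0.60 and 0.33). The erythroid genes Hbb and Alas2 were lower at -0.51 ± 0.13 and -1.24 ± 0.27, and after centring only 1 of the 4 lower erythroid genes passed.

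Of the matrix and stellate cell genes 8 of 19 were lower, a share not far above the background of 34.2%, and none was higher. Timp1, an inhibitor of matrix metalloproteases, was lower at -1.64 ± 0.35 (adjusted p = 0.000322), with 7.43, 7.69 and 7.58 in the 2-AAF long rats, 8.99, 9.42 and 9.22 in the 3MeDAB long rats and 8.14, 8.09 and 7.78 in the control rats. Fibronectin (Fn1) and Col4a1 were lower at -0.86 ± 0.14 and -0.59 ± 0.15, while Acta2, the marker of activated stellate cells, differed by -0.20 ± 0.11 and did not pass. Col4a1 was -0.38 without rat 2 of the 2-AAF long group and did not pass after centring (-0.32). The count of 8 fell to 3 without rat 2 of the 2-AAF long group, to 5 without rat 3 of the 3MeDAB long group, and to 2 after centring, where 1 was higher. Endothelial markers passed in 1 of 11 cases, under the background of 49.1%. None passed without rat 2 of the 2-AAF long group, without rat 1 or 3 of the 3MeDAB long group, or after either scaling. Of the cholangiocyte markers only 4 of 9 measured were tested, and Krt19 was lower at -0.77 ± 0.22 but did not pass after centring (-0.50); Krt7 and Cftr stayed under the filter. Pancreatic enzyme genes such as Prss1, Pnlip and Cpa1 and the adipocyte genes Adipoq and Plin1 also stayed under the filter. Cela1, which the pancreas list holds but which was bright in these livers, was higher by 1.40 ± 0.20, and Fabp4, shared by adipocytes and macrophages, was lower at -1.81 ± 0.35.

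**Figure D3:**
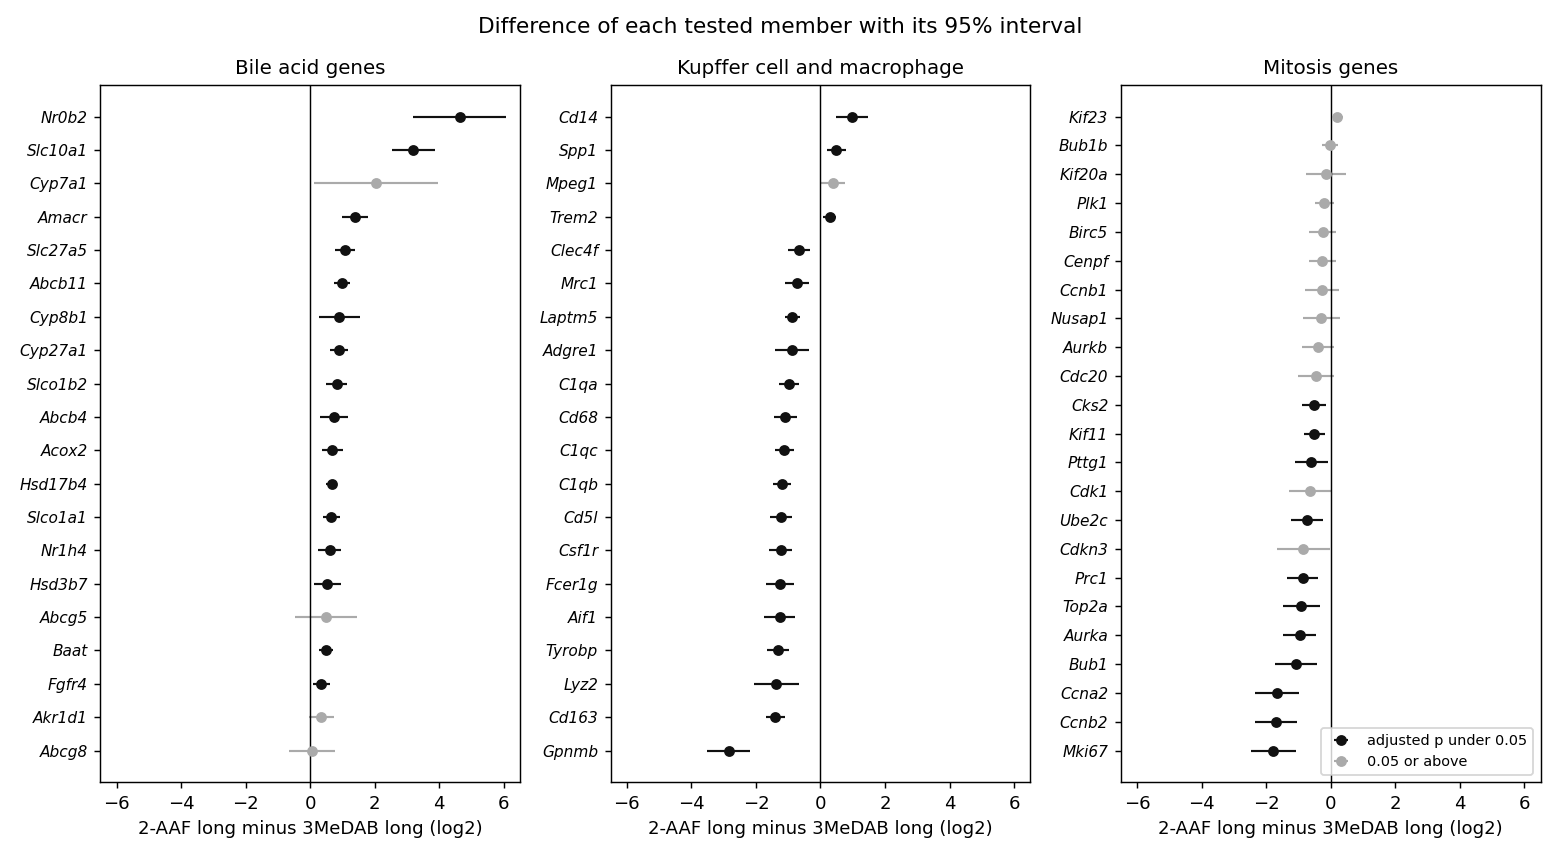
Difference of 2-AAF long minus 3MeDAB long on the log2 scale (x axis) for each tested member of 3 lists (rows), with the 95% interval from limma (bars); black points passed at an adjusted p under 0.05 and grey points did not. All 20 bile acid genes lie at or above 0.05, the macrophage markers lie below 0 except Cd14, Spp1, Trem2 and Mpeg1, and of the mitosis genes only Kif23 lies above 0.

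Acute phase genes, which the liver raises in inflammation, passed in 5 of 12 cases, 4 lower and 1 higher. The share lower is near the background of 34.2%, and the share that passed lies under the background of 49.1%. A2m, the alpha-2-macroglobulin of rat plasma, had 7.62, 5.34 and 5.69 in the 2-AAF long rats, 9.55, 10.92 and 11.02 in the 3MeDAB long rats and 8.58, 10.33 and 10.30 in the control rats. The 2-AAF long rats lay below every control and every 3MeDAB long rat, a difference of -4.28 ± 0.67 (adjusted p = 5.96e-06). Lcn2, which binds bacterial iron carriers, had 5.73, 6.03 and 6.47 in the 2-AAF long rats, 8.09, 8.90 and 8.98 in the 3MeDAB long rats and 6.08, 5.77 and 6.22 in the control rats. Its difference was -2.58 ± 0.33 (adjusted p = 3.67e-07), and here the 3MeDAB long rats, not the 2-AAF long rats, stood apart from the controls. Serpina3n was lower at -0.96 ± 0.19, and the member that was higher was the interleukin receptor Il1r1, by 0.71 ± 0.28. It did not pass with the mean of its 3 probe sets (0.29), without rat 1 or 3 of the 2-AAF long group (0.67 and 0.57) or without rat 2 or 3 of the 3MeDAB long group (0.68 and 0.63). After centring 2 acute phase genes were higher and 3 lower. The acute phase genes Hp, Orm1 and C3 did not pass (-0.12 ± 0.06, -0.40 ± 0.18 and -0.07 ± 0.22).

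Of 23 plasma protein genes 10 were higher and 5 lower; the 5 fell to 3 when any rat given 3MeDAB was left out, and after centring 16 were higher and 3 lower. All 3 fibrinogen chains were among the lower, Fga at -0.83 ± 0.10, Fgg at -0.64 ± 0.07 and Fgb at -0.57 ± 0.07, although 1 of the 3 probe sets of Fgb gave 0.53 and their mean did not pass (adjusted p = 0.955). Apoa2, an apolipoprotein of HDL, had 13.35, 13.23 and 12.69 in the 2-AAF long rats, 11.64, 10.98 and 11.19 in the 3MeDAB long rats and 13.84, 13.75 and 13.79 in the control rats, a difference of 1.82 ± 0.16 (adjusted p = 3.53e-10). The vitamin E carrier Afm and plasminogen (Plg) were higher by 0.81 ± 0.13 and 0.69 ± 0.10. Albumin differed by -0.07 ± 0.13, with an interval of -0.34 to 0.20, and transthyretin (Ttr) differed by -0.02 ± 0.06, but was higher after centring (0.25, adjusted p = 0.00585). Interferon genes passed in 6 of 28 cases, all lower, which is below the background share of 34.2%, and after centring 3 were higher and 2 lower. Tap1, a peptide transporter of antigen presentation, was lower at -1.15 ± 0.19, although its other probe set showed no such difference (-0.0016). Cxcl10, a chemokine, was lower at -1.11 ± 0.27 and Irf1 at -0.70 ± 0.24, while Mx1 and Oas1a did not pass (0.10 ± 0.33 and 0.21 ± 0.30). Irf1 no longer passed after quantile normalization (-0.50), after centring (-0.43), without rat 2 of the 2-AAF long group (-0.57) or without rat 2 or 3 of the 3MeDAB long group (-0.64 and -0.66).

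A few stress genes were far lower in the 2-AAF long rats. Atf3, a stress-induced transcription factor, had 6.14, 6.06 and 8.0 in the 2-AAF long rats, 9.50, 9.83 and 10.01 in the 3MeDAB long rats and 5.13, 4.94 and 5.07 in the control rats. Rat 3 of the 2-AAF long group stood about 2 units above its group, and the difference was -3.04 ± 0.45 (adjusted p = 2.63e-06). Ddit3, the factor CHOP, was lower at -1.51 ± 0.23 (adjusted p = 4.54e-06), and Chac1 and Mthfd2 at -1.39 ± 0.44 and -1.09 ± 0.43. The factor above them, Atf4, differed by -0.12 ± 0.14 and did not pass. Of 21 genes of the integrated stress response 6 were lower, a share under the background of 34.2%, and 1 was higher. The 6 fell to 3 without rat 2 of either long group, and after centring 4 were lower and 4 higher. Chac1 no longer passed without rat 2 of either long group (-1.15 without the 2-AAF rat and -1.21 without the 3MeDAB rat). Mthfd2 passed narrowly: it was -0.66 without rat 3 of the 2-AAF long group (adjusted p = 0.226), and did not pass after quantile normalization (-0.91), after centring (-0.82), with the 6 arrays alone or without any other rat but rat 1 of the 2-AAF long group (-1.03 to -1.16). Of 19 genes of the endoplasmic reticulum 9 were lower and 2 higher, but after centring 2 were lower and 3 higher. Manf, a secreted protein of stressed cells, was lower at -0.81 ± 0.14 and Creld2 at -0.56 ± 0.15 (-0.29 after centring, where it did not pass), and Herpud1 and Sel1l, which act in degradation, were higher by 0.88 ± 0.22 and 0.65 ± 0.13. Among heat shock genes the small chaperones Cryab and Hspb8 were lower at -1.06 ± 0.21 and -0.78 ± 0.14, and the mitochondrial chaperone Hspd1 passed narrowly as higher, by 0.17 ± 0.07. Hspd1 was 0.10 without rat 3 of the 2-AAF long group (adjusted p = 0.217), and did not pass after quantile normalization (0.14), with fewer arrays, or without rat 2 or 3 of the 3MeDAB long group (0.17 and 0.16). Of 14 heat shock genes 5 were lower, near the background share of 34.2%, and 2 were higher. The 5 fell to 2 without rat 1 of the 2-AAF long group, and to 3 when rat 2 of that group or any rat given 3MeDAB was left out. After centring 2 were lower and 4 higher.

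Of 27 genes that break down amino acids or serve the urea cycle, 13 were higher in the 2-AAF long rats and 1 was lower, with 3 lower without rat 1 of the 2-AAF long group and 4 lower without rat 1 of the 3MeDAB long group. Kmo, an enzyme of tryptophan breakdown, had 10.73, 10.62 and 10.18 in the 2-AAF long rats, 9.13, 8.28 and 8.04 in the 3MeDAB long rats and 10.76, 10.67 and 10.71 in the control rats, a difference of 2.03 ± 0.20 (adjusted p = 2.48e-09). The alanine transaminase gene Gpt, the transsulfuration enzyme Cbs and the histidine pathway gene Uroc1 were higher by 1.60 ± 0.27, 1.34 ± 0.20 and 1.14 ± 0.18. Of the urea cycle itself Otc was higher by 0.93 ± 0.21 and Asl lower at -0.76 ± 0.20, and Cps1 and Arg1 did not pass. Cps1 passed as lower without rat 1 of either long group (-0.29 without the 2-AAF rat and -0.35 without the 3MeDAB rat) and with the mean of its probe sets (-0.31), and Arg1 passed as higher after centring (0.20). In the methionine cycle 6 of 9 genes were higher and none was lower. Bhmt, which remethylates homocysteine, had 10.60, 10.90 and 11.75 in the 2-AAF long rats, 9.49, 8.59 and 8.49 in the 3MeDAB long rats and 12.04, 12.44 and 12.56 in the control rats, a difference of 2.22 ± 0.28 (adjusted p = 2.03e-07). Mat1a, which makes S-adenosylmethionine in adult liver, and Gnmt, which consumes it, were higher by 1.18 ± 0.12 and 1.17 ± 0.23. Of the 7 polyamine genes 5 were lower and none was higher: Srm, spermidine synthase, at -0.90 ± 0.19, Sat1 at -0.90 ± 0.14, and Odc1, the first enzyme, at -0.84 ± 0.20.

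Of 13 transcription factors that define hepatocytes, 3 were higher and 2 were lower, with 6 higher and 1 lower after centring. Hnf4a differed by 0.06 ± 0.11 with an interval of -0.17 to 0.29, and passed after centring (0.33). Onecut1, the factor HNF6, had 5.92, 5.99 and 5.87 in the 2-AAF long rats, 7.53, 9.14 and 8.88 in the 3MeDAB long rats and 9.95, 10.54 and 10.35 in the control rats. All treated rats lay below the controls, those given 2-AAF furthest, with a difference of -2.59 ± 0.76 (adjusted p = 0.00603). Hlf, a PAR-domain factor, was higher by 1.5 ± 0.22 (adjusted p = 2.86e-06), and Foxa3 was lower at -1.06 ± 0.36. Foxa3 did not pass after quantile normalization (-0.83), after centring (-0.79), without rat 1 of the 2-AAF long group (-0.84) or without rat 2 of the 3MeDAB long group (-0.96). Nr5a2, the receptor LRH-1, was higher by 0.55 ± 0.14 in the probe set used, but its 3 probe sets ranged between -0.25 and 0.55 and their mean did not pass; the probe set used gave 0.37 without rat 1 of the 2-AAF long group. Of 14 gluconeogenic and glucocorticoid genes Fbp1 alone passed, at 0.89 ± 0.11 (as higher, 3 passed without rat 3 of the 2-AAF long group and after quantile normalization, and 4 after centring). Of 16 clock genes Wee1 passed, at -0.73 ± 0.24; this share and that of the gluconeogenic list lie under the background of 49.1%. Wee1 no longer passed without rat 1 or 2 of the 2-AAF long group (-0.51 and -0.63), after centring (-0.46) or with the 6 arrays alone, and without rat 1 the clock list had 1 higher and 0 lower.

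The remaining genes at the ends of the range belong to none of these lists. Hsd17b2, which inactivates oestradiol and testosterone, had 10.17, 9.41 and 10.25 in the 2-AAF long rats, 8.22, 5.65 and 5.64 in the 3MeDAB long rats and 12.92, 11.18 and 11.04 in the control rats, a difference of 3.44 ± 0.50 (adjusted p = 2.13e-06). Dao, the D-amino acid oxidase, had 9.15, 9.76 and 9.72 in the 2-AAF long rats, above 7.23, 5.92 and 5.81 in the 3MeDAB long rats, with 9.40, 9.35 and 9.48 in the control rats. The homeobox gene Meox2 was higher by 3.21 ± 0.53, with rats 2 and 3 of the 2-AAF long group at 8.59 and 8.82, above the controls at 6.85, 7.19 and 6.89. Ccdc68, which encodes a coiled-coil protein, had 4.63, 4.55 and 5.22 in the 2-AAF long rats, against 8.03, 8.49 and 8.58 in the 3MeDAB long rats and 4.19, 4.14 and 4.30 in the control rats. Its difference was -3.57 ± 0.28 (adjusted p = 2.75e-11). The same pattern, dim in the 2-AAF long and control rats and raised in the 3MeDAB long rats, held in Gucy2c, the receptor of guanylin peptides (-3.0 ± 0.18), and Pglyrp1, which binds bacterial peptidoglycan (-2.98 ± 0.22). The tubulin Tubb6 and the metalloprotease Adam8 were lower at -2.83 ± 0.20 and -2.70 ± 0.21, although the dimmer of the 2 probe sets of each showed no such difference (0.02 and 0.22). Btg3, an antiproliferative protein, was lower at -2.68 ± 0.25. Fam111a gave the lowest value of all named genes, -4.93 ± 1.53 (adjusted p = 0.00898). It had 4.49, 4.56 and 4.26 in the 2-AAF long rats, 5.96, 11.15 and 10.97 in the 3MeDAB long rats and 10.36, 10.61 and 10.56 in the control rats. Rat 1 of the 3MeDAB long group lay far below its group, and the gene no longer passed without rat 2 (adjusted p = 0.059) or without rat 3 (adjusted p = 0.0536) of that group.

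Between the short groups the difference was far narrower: 197 of 11007 genes (1.79%) passed, 176 higher and 21 lower in the 2-AAF short rats, with a median of 0.00. This count rested on single rats: it was 21, 497 and 32 without rats 1, 2 and 3 of the 2-AAF short group, 233, 81 and 149 without rats 1, 2 and 3 of the 3MeDAB short group, and 0 in a limma fit of those 6 arrays alone, in which 909 genes had an unadjusted p under 0.05. Of the 197 genes, 106 (53.8%) also passed between the long groups, near the 49.1% of all tested genes that did. These are 1.96% of the 5405. In 91 of the 106 the sign was opposite at the 2 times, and 87 of those were higher at the short and lower at the long time in rats given 2-AAF. Of all genes that passed, 89.3% were higher at the short time and 30.3% at the long time. After centring these shares were 58.6% at the short time and 70.4% at the long time. The opposite signs were not counted again after centring, so how far they depend on scaling was not tested. The short and long groups are separate rats with no array in common.

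The difference of the long and the short differences passed in 4194 genes (38.1%), 1221 with a positive and 2973 with a negative value. Among the genes named here, the 6 largest positive values belonged to genes whose short difference did not pass, and 4 of these genes are in the list of male-biased genes. Cyp2c11 had 13.36, 13.41 and 13.56 in the 2-AAF short rats and 13.55, 13.48 and 13.49 in the 3MeDAB short rats, and its long minus short value was 4.47 ± 0.19 (adjusted p = 2.69e-17). Obp3, Hsd17b2, Dhrs7l1, Meox2 and Akr1c1 followed the same course, with values of 4.60 ± 0.78, 4.17 ± 0.70, 4.11 ± 1.00, 3.86 ± 0.75 and 3.83 ± 1.07. At the other end A2m had 10.09, 10.01 and 10.71 in the 2-AAF short rats and 10.26, 7.73 and 10.26 in the 3MeDAB short rats, and a long minus short value of -5.14 ± 0.94 (adjusted p = 0.000119). Tnfrsf12a, the receptor of the cytokine TWEAK, was higher in the short 2-AAF rats by 1.29 ± 0.30 (adjusted p = 0.0228) and lower in the long ones at -2.26 ± 0.30 (adjusted p = 6.96e-07). Pvr, a nectin-like adhesion receptor, turned likewise, at 1.72 ± 0.39 in the short comparison (adjusted p = 0.0196) and -1.49 ± 0.39 in the long one (adjusted p = 0.00273; -0.94 without rat 1 of the 2-AAF long group). Neither passed in the short comparison without rat 1 or 3 of the 2-AAF short group, without rat 2 of the 3MeDAB short group, or with fewer arrays. Atf3, S100a8 and Ccdc68 had values of -3.85 ± 0.63, -3.43 ± 0.57 and -3.31 ± 0.39, with short differences that did not pass.

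**Figure D4:**
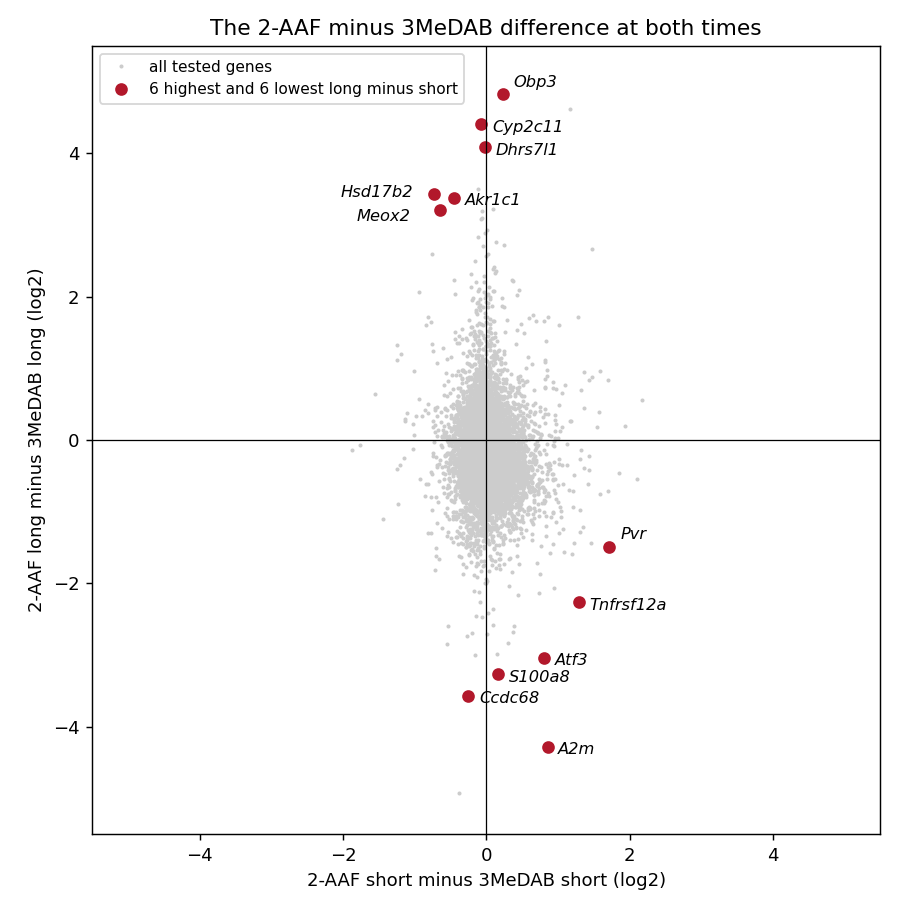
Log2 difference of 2-AAF minus 3MeDAB in the short groups (x axis) and in the long groups (y axis) for 11007 genes (grey), with the 6 highest and 6 lowest long minus short values among genes that passed that test labelled (red; symbols of uncharacterised genes left out). Cyp2c11 lies at -0.07 on the x axis and 4.41 on the y axis, and Tnfrsf12a and Pvr lie right of 0 and below 0.

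Of the 536 tested list members 5 passed in the short comparison, all higher in the 2-AAF short rats: Pdk4, which restrains pyruvate oxidation (1.70 ± 0.43), the coactivator Ppargc1a (1.57 ± 0.32), Ces2c (0.93 ± 0.25), Hspa1a (0.73 ± 0.18) and Cebpb (0.69 ± 0.18). None of the 5 passed with the 6 short arrays alone. Ppargc1a did not pass without rat 1 of the 2-AAF short group, Hspa1a did not without rat 3 of that group, and Pdk4, Ces2c and Cebpb did not without either; Ces2c and Pdk4 were also lost without any one rat of the 3MeDAB short group, Cebpb without rat 2 or 3 and Hspa1a without rat 3 of it. Ces2c was the 1 of these that also passed in the long comparison. The long minus short difference passed in 13 of 20 macrophage markers with a negative value and in 2 with a positive value. It passed in 12 of 20 bile acid genes, all with a positive value. Male and growth hormone genes gave 11 positive and 2 negative values of 19, and p53 targets 9 negative and 1 positive of 20. Over all 11007 tested genes 38.1% passed this test, 2973 with a negative and 1221 with a positive value. Cdkn1a, which did not pass between the long groups, had a value of -2.03 ± 0.61 (adjusted p = 0.00941), with 10.81 ± 0.47 in the 2-AAF short rats and 9.39 ± 0.57 in the 3MeDAB short rats (SD, n = 3 each). Cyp1a1 was already high in both short groups, at 13.32, 10.10 and 11.63 in the 2-AAF short rats and 11.77, 11.03 and 10.91 in the 3MeDAB short rats, against 5.75, 5.38 and 5.72 in the control rats.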

How the data were processed

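Liver RNA was hybridised to Affymetrix arrays, 1 per rat, and the authors deposited log2 values made with RMA, per the design text and the submitters' processing notes. The RMA version, the array's probe design and any batch are not given in the sources used here. The table holds 31099 probe sets and 65 arrays; 20826 probe sets carry 1 gene symbol in the platform annotation, 436 several and the rest none. Here the probe set with the highest mean over all arrays was kept for each of 14217 genes, and genes above the table's median of 6.03 in at least 2 of 41 arrays were tested (11007). The 41 arrays of the genotoxic and nongenotoxic sets entered 1 limma fit (R 4.3.3, limma 3.58.1) with a mean per group and no block, which was first tested on simulated data. The number of arrays limits the precision. The p-values set a difference against the spread between rats within groups, estimated over all 14 groups and not from the 6 rats compared alone. Highest correlation between any 2 arrays was 0.998, and none were identical. Named genes are the 12 highest and 12 lowest genes that passed with no overlap between the rats (symbols starting with LOC, RGD, MGC or AABR left out), up to 4 such members per list, 16 genes always reported, and the 6 highest and 6 lowest long minus short values among genes that passed that test (same symbols left out). A further 67 list members, chosen after their values were seen, are given as examples. The members and the 34 lists, which hold 631 symbols with 569 measured and 536 tested, were chosen with earlier results of these data known. No adjusted p over a list alone was used. Alternatives were other filters, probe set means, eBayes with trend, quantile or median scaling, fewer arrays, a replicate block and leaving out each rat; the list counts without each rat and the runs for the examples were added after seeing the data.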

Additional observations from a re-analysis of the deposited data

Results flagged for a closer look

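Results whose 2-AAF minus 3MeDAB difference itself changed between the long and the short groups, by a test of that change in limma, stand out. They number 4194 of 11007 genes. Among these, with uncharacterised symbols left out, genes with the largest positive change were Obp3 at 4.60, Cyp2c11 at 4.47, Hsd17b2 at 4.17, Dhrs7l1 at 4.11, Meox2 at 3.86 and Akr1c1 at 3.83 on the log2 scale. Genes with the largest negative change were A2m at -5.14, Atf3 at -3.85, Tnfrsf12a at -3.56, S100a8 at -3.43, Ccdc68 at -3.31 and Pvr at -3.20. Each of these 12 kept its sign and passed in all alternatives run. Groups of 3 rats were not tested for single outlying rats.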

How the results depend on the processing

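After centring Ttr (0.25) and Arg1 (0.20), which did not pass before and were negative, passed as positive. No other named gene or example that passed changed direction under an alternative. The balance of higher and lower counts did turn after centring, over all genes in the long comparison and in some lists, among them the ER chaperone and heat shock genes. In the long comparison, 1032 genes were higher under the stricter filter, against 1639 without it; centring each array gave 3683 higher and 1552 lower; and the 6 arrays alone gave 2925 passing, 771 higher and 2154 lower. Leaving out a rat gave 4163 to 5716 passing, 1244 to 1661 higher and 2907 to 4055 lower. In the short comparison 59 passed with the 20 genotoxic-set arrays, 0 with the 6 arrays alone (909 at limma's unadjusted p under 0.05), and 21 to 497 with a rat left out. The long minus short difference passed in 2066 genes with its own 12 arrays and in 3455 to 4738 with a rat left out. With the replicate block 5393 genes passed in the long comparison (1636 higher and 3757 lower), 189 in the short and 4205 in the long minus short difference. Between the long groups, the deviations of rats of the same number from their group means had correlations of 0.02, -0.22 and 0.08. Whether such rats share more than a number was not tested. Of 199 genes, the named ones and the examples, 157 passed in the long comparison. Of these, 12 did not after quantile normalization, 20 after centring, 6 with probe set means, 8 with the genotoxic set and 24 with the 6 arrays alone; 11, 12 and 10 did not without rats 1, 2 and 3 of the 2-AAF long group, and 7, 16 and 16 without rats 1, 2 and 3 of the 3MeDAB long group. The cause was not tested. Signals near the dim end of the array limit the size of the differences that can be measured there.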
